A study of Mus musculus with 9 samples.

Results

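Interferon gamma inducible GTPases are enzymes that bind and cut GTP and that cells make in quantity after exposure to interferon gamma, the cytokine of activated T and natural killer (NK) cells. The 7 genes described here are Irgm1, Irgm2, Igtp and Iigp1 of the immunity-related GTPase (IRG) family and Gbp2, Gbp3 and Gbp7 of the guanylate-binding protein (GBP) family. They were taken by gene symbol from tables of 23256 genes, and all 7 were among the 14912 genes that had enough reads to be tested. They were chosen by name with their levels in the 3 groups of these data already known, so the values of the 7 genes are given below as a description, without a test of the genes themselves.

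The data were RNA sequencing libraries of submandibular and sublingual glands, which are salivary glands below the jaw and tongue, from female C57BL/6 mice aged 34 weeks. The control group of 3 libraries came from mice on standard chow. The DIO (diet-induced obese) group of 3 libraries came from mice that received, from 4 weeks of age and for 20 weeks, a diet with 60% of its calories from fat. The SG group of 3 libraries came from DIO mice in which about 80% of the stomach was removed along the greater curvature at 24 weeks of age (sleeve gastrectomy), under isoflurane and after a fast. The labels name no sham operation, give no diet for the weeks after the first 20, and do not tie the libraries to separate animals, so the spread between libraries may be technical in part. SG therefore differed from DIO by the operation together with the fast, the anaesthesia and whatever diet followed.

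IRG proteins fall into regulators and effectors. The regulators Irgm1, Irgm2 and Igtp (also called Irgm3) sit on the cell's own membranes and keep the effectors inactive there, while effectors such as Iigp1 (Irga6) gather on vacuoles that hold parasites or bacteria and help to break them open. GBPs are larger GTPases that gather on the same vacuoles. Interferon gamma acts through its receptor, the kinases Jak1 and Jak2 and DNA elements called GAS, and through factors of the IRF family such as Irf1, which bind elements called ISRE. In salivary gland the interferon response is best known from Sjögren's disease, in which lymphocytes enter the gland.

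The sequence just before the start of each gene is shown first, because these are the stretches in which GAS and ISRE elements are known to act on interferon genes. RefSeq promoter sequences (mouse build GRCm38.p6) matched 6 of the 7 genes by NCBI gene number, and Iigp1 was not matched. Each line gives the 120 bases before the annotated start, 5′ to 3′ on the strand of the gene, with every match to a GAS element (TTCNNNGAA, the same on both strands) or to an ISRE core (a pair of GAAA with any 2 bases between, or on the opposite strand TTTC with the same spacing) in capitals.
Igtp: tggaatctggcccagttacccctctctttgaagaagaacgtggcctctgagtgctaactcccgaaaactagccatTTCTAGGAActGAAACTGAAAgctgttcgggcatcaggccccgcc
Irgm2: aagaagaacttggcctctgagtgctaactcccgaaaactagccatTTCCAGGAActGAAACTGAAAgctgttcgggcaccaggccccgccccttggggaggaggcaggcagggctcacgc
Irgm1: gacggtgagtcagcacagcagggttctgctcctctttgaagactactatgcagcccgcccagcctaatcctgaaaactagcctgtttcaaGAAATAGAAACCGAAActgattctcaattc
Gbp2: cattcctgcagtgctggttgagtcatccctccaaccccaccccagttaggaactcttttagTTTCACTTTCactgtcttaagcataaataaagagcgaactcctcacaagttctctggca
Gbp3: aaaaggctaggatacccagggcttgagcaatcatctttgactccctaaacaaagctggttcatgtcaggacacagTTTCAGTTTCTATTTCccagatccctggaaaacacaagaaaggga
Gbp7: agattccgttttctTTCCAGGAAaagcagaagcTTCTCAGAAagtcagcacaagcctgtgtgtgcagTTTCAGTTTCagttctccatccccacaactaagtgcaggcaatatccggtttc

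In GRCm38.p6 these windows lie at chr11:58199436-58199555 on the plus strand for Igtp, chr11:58214857-58214976 on the plus strand for Irgm2 and chr11:48871421-48871540 on the minus strand for Irgm1. Those of the GBP genes lie at chr3:142620543-142620662 on the plus strand for Gbp2, chr3:142559924-142560043 on the plus strand for Gbp3 and chr3:142530216-142530335 on the plus strand for Gbp7. All 6 genes held an ISRE core in the 250 bases before the start, compared with 2.98% of the 32841 promoters in the RefSeq table. A GAS match was present in 3 of the 6 (Igtp, Irgm2 and Gbp7), compared with 7.02% of all promoters, and these 3 therefore held both motifs, as did 0.332% of all promoters. Of the 11 other IRG and GBP genes with a promoter sequence, 6 held an ISRE core and 5 of these also a GAS match. The rest of the 11, among them Ifi47, held neither motif. Gbp3 has a second annotated start, whose promoter held no match. A match describes the letters of the reference sequence and does not show that a factor is bound there.

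The 2 regulators Igtp and Irgm2 carried the same arrangement, a GAS element followed after 2 bases by an ISRE core. It lay from 45 to 25 bases before the start in Igtp and from 75 to 55 bases before the start in Irgm2. The RefSeq start equalled a transcript start of a second annotation for Igtp and Irgm1. For Irgm2, Gbp2, Gbp3 and Gbp7 such a transcript start was found only nearby, so distances depend on the annotation used. Aligned at the GAS element without gaps, the 2 genes were identical at 73 of 75 bases. The same arrangement stood in the promoters of the effectors Tgtp1 and Tgtp2, which are near-identical IRG genes, and of the predicted IRG gene Gm12185. There the alignment with Igtp gave 43, 48 and 49 identical bases of 75. In the same alignment without gaps the promoters of Tgtp1 and Tgtp2 had 55 of 75 bases identical. Those of Tgtp2 and Gm12185 had 69 and those of Tgtp1 and Gm12185 53. A base inserted or missing in either window shifts the bases after it, so such counts can understate the likeness. Irgm1 held 2 overlapping ISRE cores and no GAS match, Gbp3 also held 2 overlapping ISRE cores, and Gbp7 held 2 GAS matches ahead of its ISRE core. The windows of the pair of Tgtp genes, shown for the shared arrangement, are at chr11:48992247-48992366 on the minus strand and chr11:49064213-49064332 on the minus strand.
Tgtp1: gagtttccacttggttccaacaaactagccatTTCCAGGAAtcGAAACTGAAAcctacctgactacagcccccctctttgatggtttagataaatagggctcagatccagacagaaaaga
Tgtp2: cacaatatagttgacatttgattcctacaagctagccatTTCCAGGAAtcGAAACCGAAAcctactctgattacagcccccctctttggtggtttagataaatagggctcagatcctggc

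**Figure D1:**
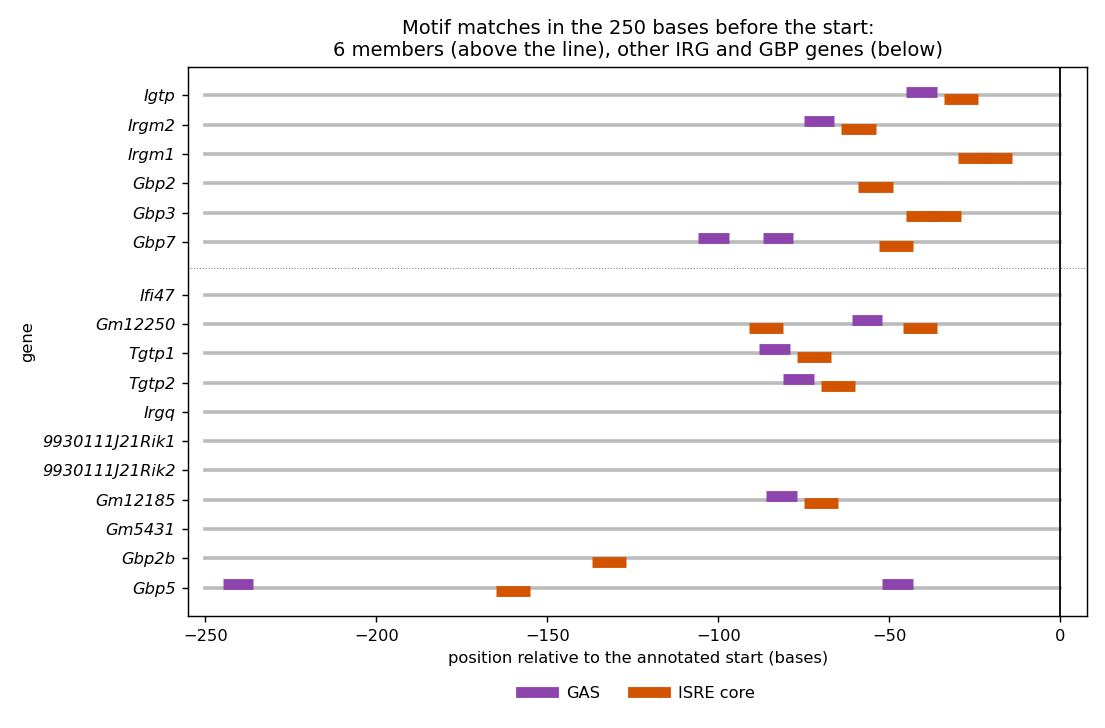
Positions of GAS (purple) and ISRE core (orange) matches in the 250 bases before the annotated start (x axis, bases) for the 6 matched genes above the dotted line and 11 other IRG and GBP genes below it. All 6 genes above the line have an ISRE core, and 3 also have a GAS match. Of the 11 genes below the line 6 have an ISRE core, and 5 also have a GAS match.

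Several of the genes are neighbours in the genome. In the RefSeq gene order of GRCm38.p6, Gm12250 (Irgb10), Igtp and Irgm2 are consecutive coding genes on chromosome 11, and Irgm1 lies elsewhere on chromosome 11 next to Gm5431 and Gm12185. Gbp5, Gbp7, Gbp3, Gbp2b and Gbp2 are consecutive on chromosome 3. Gbp3 overlaps the long noncoding RNA gene Gm40158 and Gbp2 overlaps the microRNA gene Mir6381. Whether the counting used strand is not given in the sources used here, so reads of such overlapping genes may not be separable.

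The libraries held between 36349885 and 43495564 counts. The library control 2 stood apart, with a mean rank correlation of 0.973 to the other 8 libraries where the others had 0.985 to 0.987. Its summed levels were also the highest of the 9 for parotid acinar markers (33973 CPM, read counts brought to a common library total, against at most 8246 in the other libraries), lymph node markers (101 CPM against at most 8.25) and B cell markers (132 CPM against at most 45.1). Markers of salivary acini and ducts were at 94073 to 136595 CPM in all 9 libraries, which is in accord with salivary gland. This sum was not used to tell the salivary glands apart.

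Per length, the regulator Irgm1 had the highest level of the 7 genes and the GBPs Gbp3 and Gbp7 the lowest. Mean FPKM (reads relative to gene length and library total, the deposited unit that allows genes to be compared) over the 9 libraries was 17.1 for Irgm1, 7.03 for Igtp, 6.66 for Irgm2, 5.0 for Gbp2, 1.99 for Iigp1, 1.66 for Gbp3 and 1.06 for Gbp7. The median of all genes tested was 2.81 FPKM, so 4 of the 7 lay above it and 3 below. Irgm1 exceeded the next gene in 9 of 9 libraries, as did Irgm2 over Gbp2, Gbp2 over Iigp1 and Gbp3 over Gbp7. The order of Igtp and Irgm2 differed between groups. Igtp exceeded Irgm2 in 4 of 9 libraries, which were the 3 DIO libraries and control 2, and was below it in all 3 SG libraries. In the DIO group Igtp had 10.7 ± 2.37 FPKM and Irgm2 8.96 ± 1.98 (SD, n = 3), and in the control group Igtp had 5.01 ± 0.716 and Irgm2 5.21 ± 0.372, so the means of the 2 genes differed by less than either SD in both groups. Iigp1 exceeded Gbp3 in 6 of 9 libraries.

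All 7 genes had a higher mean in DIO than in control glands, and all 7 a lower mean in SG than in DIO glands. The size varied widely between them. The DIO mean was 1.98 times the control mean for Igtp and 2.00 times for Gbp2, 1.59 times for Irgm2 and 1.67 times for Iigp1. For Iigp1, Irgm1, Gbp3 and Gbp7 the means differed by less than the larger SD of the 2 groups. In SG glands Igtp had 11.1 ± 1.29 CPM and Gbp2 9.14 ± 1.41, where control glands had 10.4 ± 1.46 and 9.02 ± 2.15 (SD, n = 3), less than the spread of the libraries apart. In the following, levels are CPM, the 3 values of a group are given in the order of replicates 1, 2 and 3, and fold changes are log2 fold changes fitted by edgeR with their standard error (SE).

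Among the regulators, Igtp is needed in mice for resistance to the parasite Toxoplasma gondii. Its level was 11.6, 10.8 and 8.76 CPM in control, 24.2, 19.5 and 18.0 in DIO and 12.4, 11.0 and 9.85 in SG libraries. Every DIO library lay above every control and SG library, and the control and SG libraries overlapped. The log2 fold change was 0.99 (SE 0.15) for DIO over control and -0.89 (SE 0.15) for SG over DIO.

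Irgm2, which is found at the Golgi apparatus and on pathogen vacuoles, showed the same order at a smaller size. Its level was 21.1, 17.3 and 18.1 CPM in control, 34.4, 30.5 and 25.1 in DIO and 22.4, 19.2 and 20.5 in SG libraries. The DIO libraries again did not overlap with those of either other group. The log2 fold change was 0.67 (SE 0.13) for DIO over control and -0.53 (SE 0.13) for SG over DIO.

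Irgm1, a regulator linked to autophagy and to the survival of lymphocytes and blood stem cells in infected mice, had a different pattern. Its level was 53.4, 42.0 and 50.1 CPM in control, 54.3, 48.3 and 54.1 in DIO and 42.0, 37.8 and 42.4 in SG libraries. Control and DIO libraries overlapped, and the SG libraries lay below all DIO libraries. The log2 fold change was 0.11 (SE 0.10) for DIO over control, and its direction turned without control 2, to -0.0091. It was -0.36 (SE 0.10) for SG over DIO and -0.25 (SE 0.10) for SG over control. SG and control overlapped through control 2, and without that library all SG libraries lay below the control libraries, with a log2 fold change of -0.36.

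Iigp1 is the effector among the 4 IRG genes and had the widest spread. Its level was 6.38, 8.43 and 3.58 CPM in control, 16.5, 8.91 and 5.23 in DIO and 4.52, 3.76 and 3.47 in SG libraries. The DIO libraries differed 3-fold among themselves, with a coefficient of variation of 56.3%, and DIO 3 lay below 2 of the control libraries. The SG libraries lay below all DIO libraries. The log2 fold change was 0.74 (SE 0.38) for DIO over control, or 0.19 without DIO 1, and -1.38 (SE 0.39) for SG over DIO, or -0.84 without DIO 1. Iigp1 has close copies in the genome, among them Iigp1c, so the share of reads given to each is uncertain.

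Gbp2, a GBP with a lipid anchor that attaches to pathogen vacuoles, had 10.4, 10.1 and 6.54 CPM in control, 23.4, 16.7 and 14.1 in DIO and 10.7, 8.07 and 8.61 in SG libraries. As with Igtp and Irgm2, all DIO libraries were above all others. The log2 fold change was 1.0 (SE 0.22) for DIO over control and -0.98 (SE 0.22) for SG over DIO. The difference between SG and control was 0.020 (SE 0.22).

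Gbp3 and Gbp7, GBPs of the same gene cluster, overlapped in all 3 comparisons. Gbp3 had 4.18, 6.33 and 3.49 CPM in control, 7.91, 6.81 and 4.33 in DIO and 5.44, 3.43 and 4.86 in SG libraries. Gbp7 had 5.93, 7.34 and 4.23 CPM in control, 9.20, 6.11 and 5.13 in DIO and 5.74, 4.02 and 5.30 in SG libraries. For both genes DIO 1 was the highest and control 2 the highest of its group. The log2 fold changes for DIO over control were 0.44 (SE 0.28) for Gbp3 and 0.22 (SE 0.26) for Gbp7. That of Gbp3 was 0.24 without DIO 1, 0.27 without control 3 and 0.71 without control 2, and that of Gbp7 turned to -0.072 without DIO 1. For SG over DIO they were -0.47 (SE 0.29) and -0.44 (SE 0.26), or -0.28 and -0.15 without DIO 1 and -0.29 for both without SG 2.

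**Figure D2:**
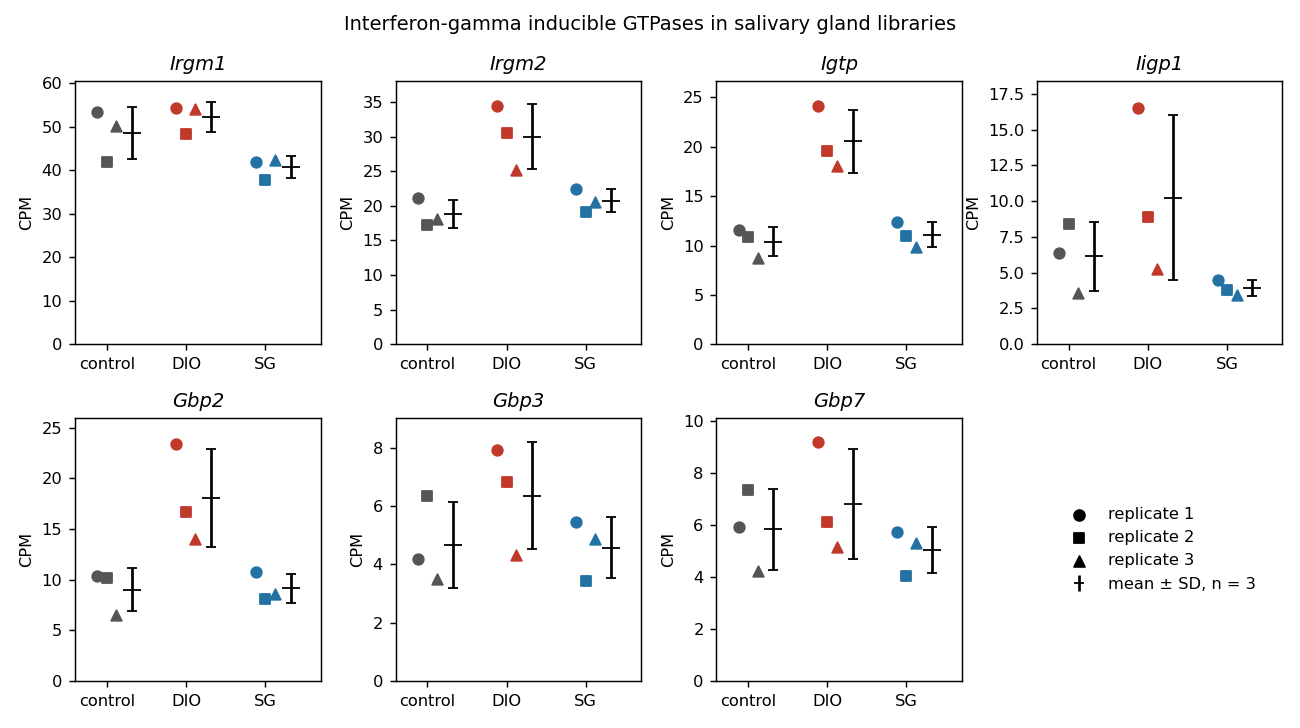
Level of each of the 7 genes (y axis, CPM, from 0) in the 9 libraries by group, with marker shape for the replicate number and the mean ± SD of 3 libraries beside the points. Igtp, Irgm2 and Gbp2 have all DIO libraries above all control and SG libraries, and Gbp3 and Gbp7 overlap throughout.

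All DIO libraries were above all control libraries for 3 of the 7 genes (Igtp, Irgm2 and Gbp2), a pattern held by 8.94% of all genes tested. All SG libraries were below all DIO libraries for 5 of the 7 (these 3, Irgm1 and Iigp1), against 9.74% of all genes tested. For these 3 genes DIO was above both other groups, as for 3.02% of all genes tested, and SG and control libraries overlapped for all 7. Without control 2 the SG libraries lay below the control libraries for 1 of the 7, Irgm1, and for 9.33% of all genes tested. In DIO against control 0.0939% of all genes tested passed an adjusted p of 0.05 in edgeR's quasi-likelihood test in either direction, and 0.0536% with a higher level in DIO. For SG against DIO and for SG against control no gene of the 14912 passed (0%), where 1331 and 1208 had an unadjusted p under 0.05 and DESeq2 called 86 and 57. As the genes were chosen with these differences known, nothing further is read from these counts.

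The median log2 fold change of the 7 genes was 0.67 for DIO over control, where that of all genes tested was 0.0083. It was -0.53 for SG over DIO and -0.030 for SG over control, where those of all genes tested were -0.0047 and 0.0012. DIO against control and SG against DIO share the DIO libraries, so that a high DIO library moves both. One library carried much of the first value, as the median was 0.24 without DIO 1. Without control 2 it was 0.71, and 4 of the 7 genes (Gbp3 in addition) then had all DIO libraries above the remaining control libraries, against 18.4% of all genes. Without DIO 1 these counts were 3 of 7 against control and 5 of 7 against SG, where 13.4% and 13.3% of all genes had such a pattern.

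Within the DIO group the 7 genes mostly had the same order of libraries. DIO 1 was the highest of the 9 libraries for all 7 genes, as for 10.9% of all genes tested, and DIO 3 was the lowest DIO library for 6 of 7 (all but Irgm1), as for 38.9% of all genes. Their summed level was 113, 102 and 94.8 CPM in control, 170, 137 and 126 in DIO and 103, 87.2 and 95.0 in SG libraries. The sums of the DIO libraries did not overlap with those of either other group.

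Pairs of the 7 genes went together over the 9 libraries, with Irgm1 least. Over the 21 pairs, Pearson's r of log2 levels ran from 0.18 to 0.97 with a median of 0.70, and after subtraction of each group's mean from -0.30 to 0.94 with a median of 0.72. These correlations are a description over 9 libraries. Genes of the same library share its depth and cell makeup, and summed levels of cell type markers differed between libraries. The part of this in the correlations was not tested. Igtp and Gbp2, on different chromosomes, had r of 0.97, and Gbp3 and Gbp7, which are neighbours, 0.91. The median r of Irgm1 with the other 6 genes was -0.013 after subtraction of group means, and for each of the others it was between 0.62 (Irgm2) and 0.86 (Gbp2).

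The other genes of both families had the same direction with few exceptions. Besides the 7 genes, 19 IRG and GBP genes were in the table and 16 had enough reads to be tested. Of these, 15 were higher in DIO than in control and 1 (Irgq, an atypical IRG gene) was not, and all 16 were lower in SG than in DIO, but none passed the adjusted threshold in any comparison. Their median log2 fold change was 0.76 for DIO over control (1.19 without control 2) and -1.27 for SG over DIO. For SG over control it was -0.39, with 15 of the 16 lower in SG, where the 7 genes had -0.030. Without control 2 it was 0.0088, with 8 of the 16 lower. Over all genes tested 51.7% were higher in DIO than in control and 51% lower in SG than in DIO.

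Among the other IRG effectors, Tgtp2 had 2.50, 3.63 and 1.80 CPM in control, 6.38, 5.76 and 4.20 in DIO and 2.69, 2.60 and 2.0 in SG libraries. Its DIO libraries were above all others, with log2 fold changes of 1.04 (SE 0.28, edgeR adjusted p = 0.239) for DIO over control and -1.16 (SE 0.28, adjusted p = 0.354) for SG over DIO. Its near-identical copy Tgtp1 had values of 0.96 (SE 0.45) and -1.55 (SE 0.47), and reads of the 2 copies may not be separable. Gm12250, which encodes Irgb10, had 1.06 (SE 0.52) and -1.65 (SE 0.53), and Ifi47, which encodes Irgd, had 0.86 (SE 0.35) and -1.29 (SE 0.36). Irgq had -0.094 (SE 0.13) and -0.084 (SE 0.13).

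The remaining IRG genes F830016B08Rik, 9930111J21Rik1, Gm12185, Gm5431 and Iigp1c were below 3 CPM in every library, with log2 fold changes from 0.22 (Iigp1c, SE 0.82) to 1.39 (F830016B08Rik, SE 0.90) for DIO over control. Those of Iigp1c and 9930111J21Rik1 changed direction when single libraries were left out.

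Among the other GBPs with a mean of at least 2 CPM, Gbp6 followed the mean of the 7 genes most closely (Pearson's r = 0.970). It had 4.66, 4.03 and 3.34 CPM in control, 11.0, 8.23 and 4.62 in DIO and 4.45, 2.23 and 3.36 in SG libraries, and DIO 3 lay within the control range. Its log2 fold changes were 0.99 (SE 0.32) and -1.25 (SE 0.32), and its reads may be shared with Gbp10, a close copy that had 1.59 (SE 0.81) and -1.65 (SE 0.82) at under 1 CPM. For DIO over control Gbp4 had 0.40 (SE 0.37), Gbp5 0.33 (SE 0.26), Gbp8 0.52 (SE 0.50) and Gbp9 0.32 (SE 0.30). With 1 library left out these ran from 0.11 (without control 3) to 0.70 (without control 2) for Gbp4, 0.086 (without control 3) to 0.48 (without control 2) for Gbp5, 0.15 (without DIO 1) to 1.06 (without control 2) for Gbp8 and 0.063 (without control 3) to 0.69 (without control 2) for Gbp9. For SG over DIO the same 4 genes had -1.20, -0.43, -1.48 and -0.66. All 6 GBPs outside the 7 genes had fold changes above 0 over control, also with each library left out, and control and DIO libraries overlapped for all but Gbp10.

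**Figure D3:**
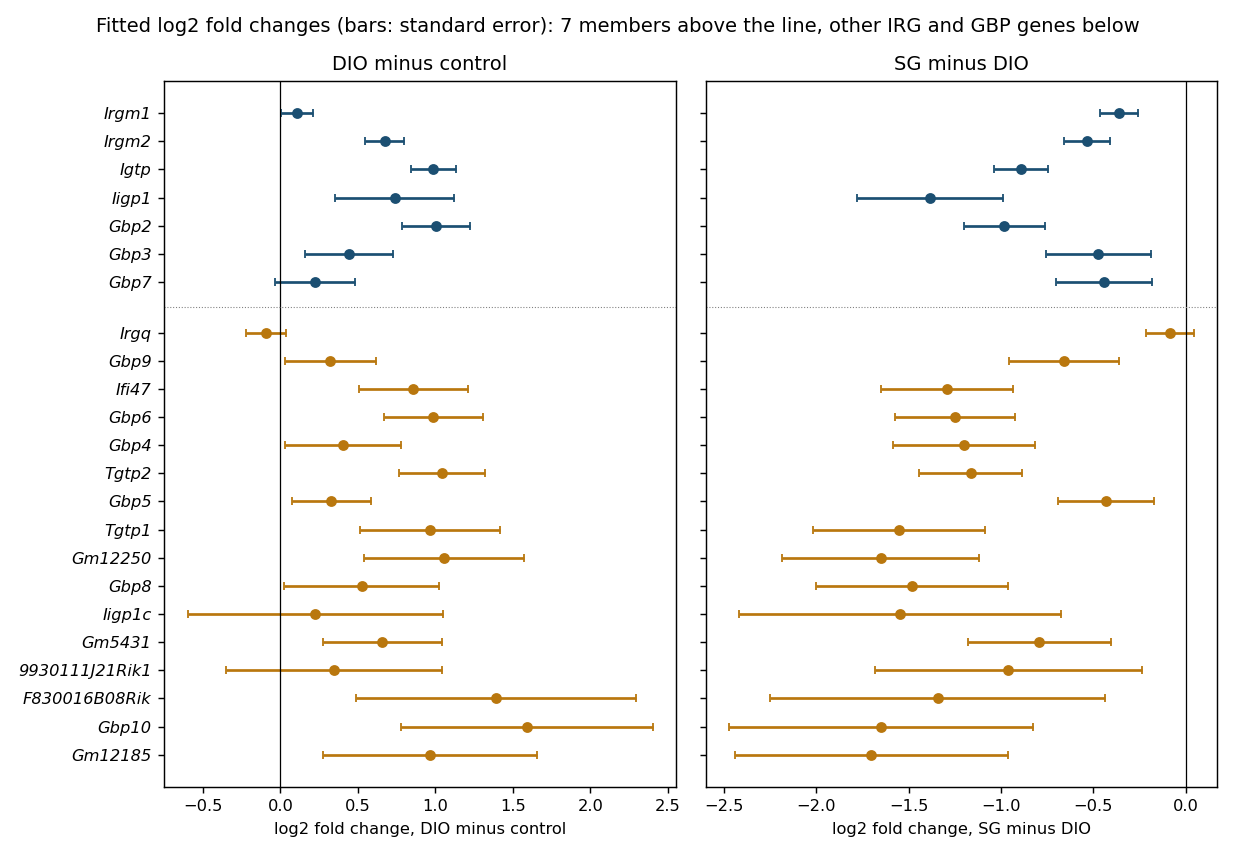
Fitted log2 fold changes (x axes, points) with their standard error (bars) for DIO minus control at left and SG minus DIO at right, with the 7 genes above the dotted line and 16 other IRG and GBP genes below. Irgq is the only gene below 0 at left, and all 23 genes lie below 0 at right.

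The ligand itself was near the limit of detection. Ifng, the gene of interferon gamma, had 1, 0 and 1 counts in control, 12, 3 and 4 in DIO and 4, 0 and 0 in SG libraries, and it was left out of the test by the filter on low counts. A level of 3 counts corresponded to 0.0674 to 0.0833 CPM, and all control libraries were under it. No fold is given.

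Of the 15 genes of the ligand, its receptor and its signalling, 14 were tested and none passed the threshold. In DIO 12 were higher than in control (51.7% of all genes tested), and in SG 12 were lower than in DIO (51%). The medians were 0.15 and -0.14. The receptor chains and kinases differed little. Ifngr1, the chain that binds the cytokine, had 0.25 (SE 0.15) for DIO over control and -0.30 (SE 0.15) for SG over DIO. Ifngr2, the accessory chain, had 0.088 (SE 0.11) and 0.14 (SE 0.11). Jak1 had -0.052 (SE 0.12), which turned to 0.039 with library totals as the scaling, and -0.10 (SE 0.12). Jak2 had 0.10 (SE 0.20) and -0.00073 (SE 0.20), and neither direction held in all alternatives.

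The transcription factor Irf1, itself known to be induced by interferon, had 26.8, 25.7 and 18.5 CPM in control, 34.3, 34.6 and 27.4 in DIO and 29.5, 27.0 and 29.6 in SG libraries. Its log2 fold change was 0.44 (SE 0.14) for DIO over control and -0.16 (SE 0.14) for SG over DIO, where the libraries overlapped. Socs1, which inhibits the pathway, was near 1 CPM and had 0.86 (SE 0.43) and -1.80 (SE 0.45).

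The transcriptional coactivators of antigen presentation, Ciita for class II and Nlrc5 for class I genes, had wider spreads. Ciita had 3.56, 14.0 and 1.32 CPM in control and 8.59, 10.2 and 5.67 in DIO libraries, with its highest value in control 2, and 3.15, 2.78 and 3.0 in SG libraries. Its log2 fold change of 0.37 (SE 0.60) over control was -0.11 without control 3 and 1.73 without control 2. For SG over DIO it was -1.45 (SE 0.63). Nlrc5 had 0.60 (SE 0.31) and -0.91 (SE 0.32).

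Targets of interferon gamma outside the GTPases had the same direction. The list was drawn up with earlier results of these data known, so its counts are a description. All 22 genes tested had a higher level in DIO than in control (51.7% of all genes tested), with a median log2 fold change of 0.41. All 22 had a lower level in SG than in DIO (51% of all genes tested), with a median of -0.62. All DIO libraries were above all control libraries for 6 of them (8.94% of all genes tested) and all SG libraries below all DIO libraries for 15 (9.74% of all genes tested), and none passed the threshold. The list's most abundant genes were B2m, the light chain of class I molecules, Ifi30, a lysosomal thiol reductase, and Tapbp, which loads peptide on class I molecules. B2m had 177, 225 and 144 CPM in control, 375, 257 and 267 in DIO and 192, 175 and 196 in SG libraries, with log2 fold changes of 0.72 (SE 0.18) and -0.68 (SE 0.18). Ifi30 had 0.26 (SE 0.23) and -0.38 (SE 0.23), and Tapbp 0.086 (SE 0.085) and -0.063 (SE 0.085).

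Genes known for their response to type I interferon, many of which interferon gamma also induces, had the same direction. This list, too, was drawn up with earlier results of these data known. Of 27 tested, 25 were higher in DIO than in control (51.7% of all genes tested) and 25 lower in SG than in DIO (51%). The medians of the 27 genes were 0.32 and -0.21, and none passed the threshold. Their summed level was 408 to 471 CPM over control, 601 to 657 over DIO and 372 to 552 over SG libraries. Ifi27l2a had 1.05 (SE 0.21, edgeR adjusted p = 0.116) and -0.99 (SE 0.21), Bst2 0.29 (SE 0.16) and -0.36 (SE 0.16), and Irf7 0.47 (SE 0.17) and -0.53 (SE 0.17). In the deposited annotation all 7 GTPases carry the term for the cellular response to interferon beta, a type I interferon, and 5 of the 7 (not Irgm2 and Iigp1) the term for the response to type II interferon, which is interferon gamma.

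Genes whose products act with the GTPases, cytokines that induce interferon gamma and other large GTPases were examined in the same way. The ATG8 system, whose ubiquitin-like proteins are needed to place IRG and GBP proteins on vacuoles, had 11 of 16 tested genes higher in DIO than in control, with a median of 0.073, and 7 of 16 higher in SG than in DIO, with a median of -0.013. Its most abundant genes Gabarap, Gabarapl1 and Map1lc3a had 0.067 (SE 0.11), 0.056 (SE 0.11) and 0.21 (SE 0.14) for DIO over control. Of 8 inflammasome genes, which act after GBPs have exposed bacterial products, 3 were higher in DIO than in control and 3 higher in SG than in DIO, with medians of -0.12 and -0.31. Pycard had -0.068 (SE 0.093) for DIO over control, Gsdmd 0.092 (SE 0.26) and Casp1 0.61 (SE 0.40). Of 10 cytokine genes that induce interferon gamma, 5 were tested, with 3 higher in DIO and a median of 0.19. Among 7 other large GTPases, 5 were higher in DIO than in control and 6 lower in SG than in DIO, with medians of 0.20 and -1.13. None of these genes passed the threshold in either comparison.

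Among the 10 genes whose log2 levels followed the mean of the 7 GTPases most closely over the 9 libraries, among 11029 ranked, were Gbp6 (Pearson's r = 0.970), Olfml3 (0.968), Slit3 (0.959), Sesn3 (0.952), Cd163 (0.946), Homer1 (0.945), Cxcl9 (0.944), Zw10 (0.939) and H2-DMb1 (0.936). In all, 38 genes reached r of 0.9. These values are a description over 9 libraries, with no test. As the genes were picked for following the 7 GTPases over the same libraries, their differences between groups follow in part from that choice. Cxcl9, a chemokine induced by interferon gamma that attracts T cells, had 2.95, 2.86 and 0.625 CPM in control, 11.4, 7.42 and 4.72 in DIO and 1.93, 1.79 and 1.69 in SG libraries. Its DIO libraries lay above all others, with a log2 fold change of 1.87 (SE 0.48, edgeR adjusted p = 0.215) over control and -2.12 (SE 0.49, adjusted p = 0.325) for SG over DIO. H2-DMb1, which helps to load class II molecules, had 0.50 (SE 0.18) and -0.78 (SE 0.18). Olfml3 had 0.44 and -0.49, Slit3 0.42 and -0.46, and Sesn3 0.32 and -0.32. Cd163 had 0.77 and -1.16, Homer1 0.14 and -0.18, and Zw10 0.11 and -0.19.

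**Figure D4:**
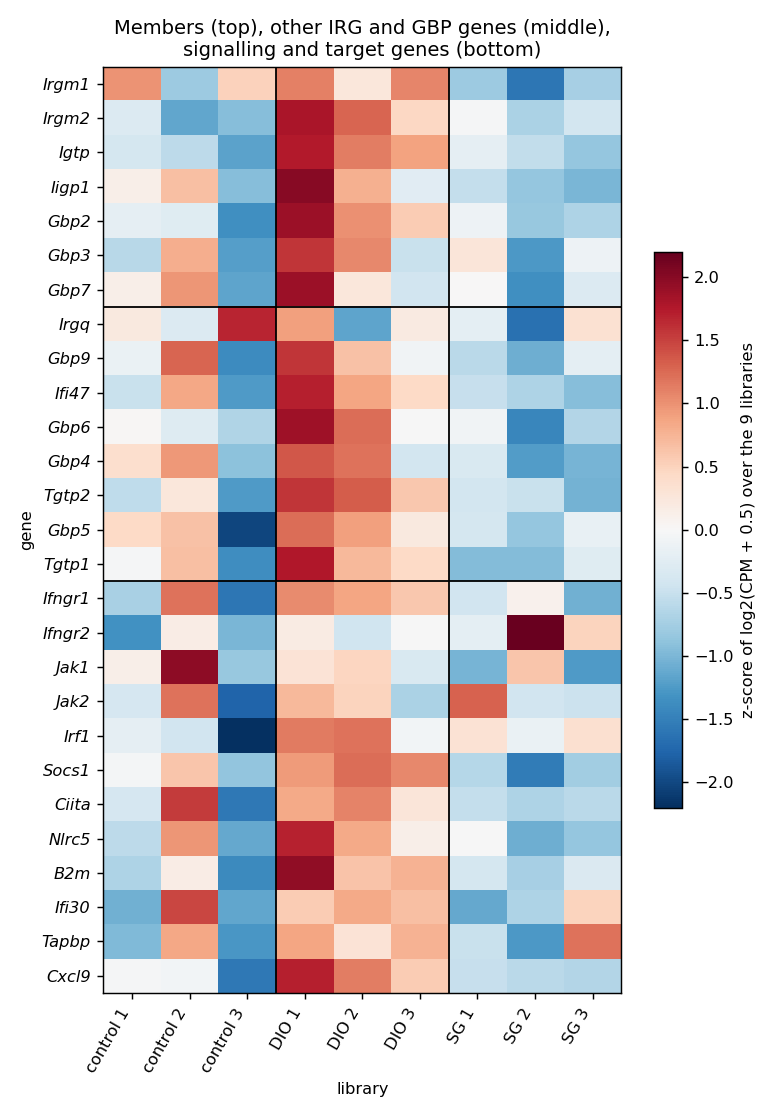
Level of the 7 genes (top), the other IRG and GBP genes with a mean of at least 2 CPM (middle) and named signalling and target genes (bottom) in the 9 libraries (columns), as the z-score of log2(CPM + 0.5) over libraries. DIO 1 is the highest library for all 7 genes at the top.

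The same promoter motifs were also followed across the genome. Of the 387 tested genes with an ISRE core, the 6 matched GTPases left out, 57.4% were higher in DIO than in control and 59.4% lower in SG than in DIO, with median log2 fold changes of 0.044 and -0.054. Of the 852 with a GAS match 55.8% were higher in DIO and 55% lower in SG, with medians of 0.031 and -0.021. Of the 40 with both motifs 65% were higher in DIO and 67.5% lower in SG, with medians of 0.15 and -0.14. Those 40 include the family members Gbp5, Gm12185, Gm12250, Tgtp1 and Tgtp2, which are therefore also among the 387 and the 852. Of the other 35 genes with both motifs 60% were higher in DIO and 62.9% lower in SG, with medians of 0.12 and -0.12. Over all 11763 tested genes with a promoter sequence 51.8% were higher in DIO and 51.1% lower in SG.

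Markers of immune cells moved with the GTPases in part. The summed level of 21 T and NK cell markers was 23.4, 88.0 and 14.5 CPM in control, 63.3, 55.8 and 39.6 in DIO and 22.7, 24.8 and 20.4 in SG libraries, and none of the 21 was at 0 in any library. The sums of the 3 DIO libraries had the same order for these markers as for the GTPases. That order was shared by the sums of macrophage and dendritic cell markers (329, 275 and 247 CPM) and of plasma cell markers (378, 319 and 303 CPM). Pan-leukocyte markers (499, 524 and 491 CPM) and B cell markers (25.9, 45.1 and 16.3 CPM) did not share it. All 21 T and NK markers were lower in SG than in DIO (log2 fold change below 0, as for 51% of all genes tested). For 15 of the 21 all SG libraries lay below all DIO libraries, as for 9.74% of all genes tested. The same held for 9 of 10 pan-leukocyte, 8 of 8 B cell and 3 of 4 tested plasma cell markers. It held for 4 of 16 macrophage and dendritic cell markers. Control 2 had the highest T and NK marker sum of all libraries and a summed GTPase level of 102 CPM, within the range of the other control and SG libraries. Irgm1 made up 42.0 CPM of that GTPase sum. Among the control libraries, control 2 was the highest for Iigp1, Gbp3 and Gbp7 and the lowest for Irgm1 and Irgm2. For Igtp and Gbp2 it lay between the other control libraries. The summed levels of the other IRG genes (38.4 CPM) and other GBP genes (26.6 CPM) were the highest of the control group in control 2. Macrophage and dendritic cell markers (16 genes, none at 0) summed to 153 to 355 CPM in the control, 247 to 329 in the DIO and 187 to 288 in the SG libraries, with control 2 again highest. Pan-leukocyte markers (10 genes, none at 0) summed to 439 to 681, 491 to 524 and 446 to 473 CPM, and all but 1 were lower in SG than in DIO. Against control, 18 of the 21 T and NK markers were higher in DIO, as were 13 of the 16 macrophage and dendritic cell markers. This held for 4 of the 10 pan-leukocyte (median log2 fold change -0.021), 0 of 8 B cell (median -0.54) and 3 of 4 tested plasma cell markers. Over all genes tested 51.7% were higher in DIO than in control.

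Among the other cell types, B cell markers (8 genes, 3 of them at 0 in at least 1 library) summed to 0.625 to 132 CPM over control, 16.3 to 45.1 over DIO and 3.30 to 7.75 over SG libraries. Lymph node markers (5 genes, 3 of them at 0 in at least 1 library) summed to 3.99 to 101, 4.68 to 8.25 and 1.63 to 7.19 CPM. Plasma cell markers (5 genes) summed to 244 to 303 CPM over control, 303 to 378 over DIO and 217 to 268 over SG libraries. Endothelial markers (8 genes) summed to 87.3 to 117 CPM, 78.7 to 82.1 and 81.4 to 117. Adipocyte markers (7 genes) summed to 17.8 to 120, 14.1 to 29.1 and 14.9 to 40.4 CPM, and parotid acinar markers (4 genes) to 2438 to 33973, 1522 to 2607 and 1095 to 8246 CPM. The part of these cells in the levels of the GTPases was not tested. In whole glands, fewer cells of a type and less RNA per cell cannot be told apart.

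**Figure D5:**
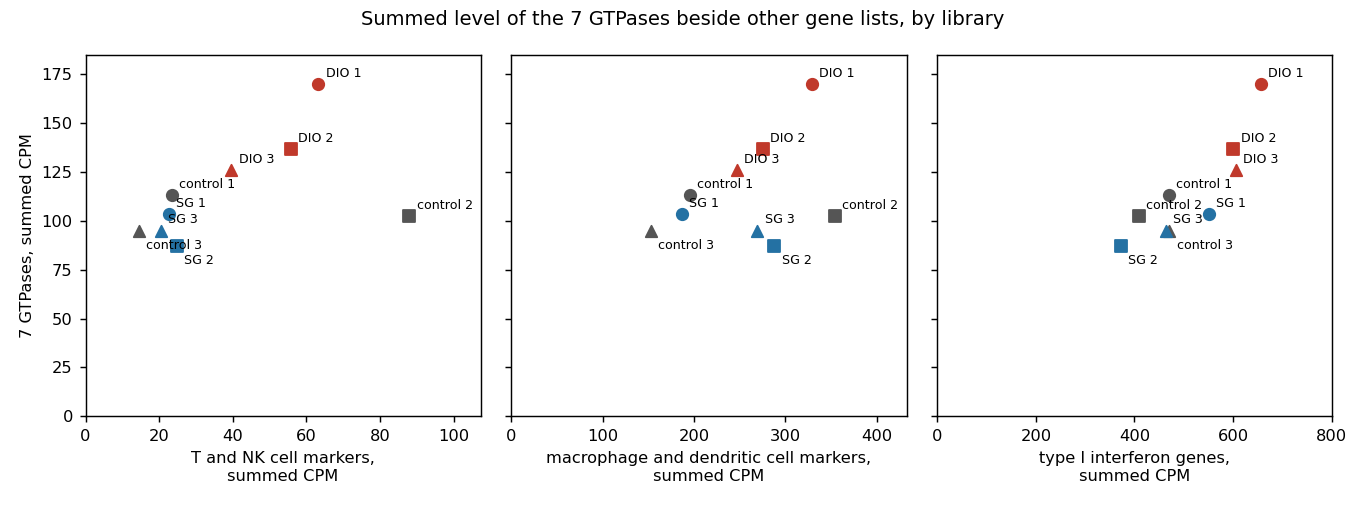
Summed level of the 7 GTPases (y axis, CPM) against the summed level of T and NK cell markers, macrophage and dendritic cell markers and type I interferon genes (x axes, CPM), 1 point per library, coloured by group. The 3 DIO libraries are highest on the y axis in each panel, and control 2 has the highest T and NK marker sum (88.0 CPM) at a GTPase sum of 102 CPM. Irgm1 makes up 42.0 CPM of the GTPase sum of control 2.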

How the data were processed

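The authors deposited unscaled read counts, whole numbers, for 23256 genes in 9 libraries. A second table deposited by the authors holds FPKM, which are the counts relative to gene length and library total. For the 7 GTPases both tables imply 1 gene length each (2023 to 5622 bases). Per the labels' protocols, TRIzol was used for extraction and a VAHTS kit for libraries of polyadenylated RNA. HISAT2, Salmon and the build GRCm39 are named in the submitters' processing notes. For their versions, the annotation, the strand setting and reads with several matches, the sources used here give nothing.

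The counts were tested with edgeR 4.0.16 in R 4.3.3 (quasi-likelihood F test after filterByExpr, TMM-scaled library sizes, 1 fit of all 9 libraries in 3 groups), with Benjamini-Hochberg adjustment over 14912 genes and a threshold of 0.05. The common biological coefficient of variation was 0.206. CPM uses TMM-scaled totals, and z-scores and correlations use log2(CPM + 0.5). Counts were also simulated with the common coefficient of variation for every gene (DIO against control, 14722 genes). They lack the differences in spread between genes and between libraries. In them the fit recovered 65% of genes changed by 1 on the log2 scale and 100% of those changed by 2, with 4 unchanged genes called. Only genes with a mean above 2 CPM were changed, so recovery in the real libraries may be lower. Libraries of a group differed beyond sampling noise (chi-square per degree of freedom 28.3 to 216).

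The 7 genes and all gene lists were chosen with earlier results of these data known. Named are the 7 genes, every other IRG or GBP gene kept by the filter, genes of the pathway (Ifng, Ifngr1, Ifngr2, Jak1, Jak2, Irf1, Socs1, Ciita and Nlrc5), any listed gene past the threshold, up to 3 genes of highest mean FPKM from each other list, and the 10 genes with the highest Pearson correlation to the mean z-score of the 7 (named genes of at least 2 CPM). 1 gene that the rule selects is not reported here. Promoters and gene order are from RefSeq (GRCm38.p6), promoters matched by NCBI gene number. Motifs were searched on both strands in 250 bases before the start. Alternatives were other scalings, no filter, DESeq2 1.42.0, fits of 2 groups, a replicate block and each library left out. Whether replicate numbers pair libraries was checked from the data.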

Additional observations from a re-analysis of the deposited data

How the results depend on the processing

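The direction of the median of the 7 GTPases was kept in all 15 alternatives for DIO over control (0.24 to 0.79) and for SG over DIO (-0.69 to -0.41), and the lowest and highest of these come from fits without 1 library. That of the other IRG and GBP genes was 0.51 to 1.19 and -1.51 to -0.99. For SG over control the medians changed sign with the library left out, from -0.20 to 0.097 for the 7 GTPases (above 0 without control 2 or SG 2) and from -0.66 to 0.0088 for the other genes (above 0 without control 2).

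The number of genes called in DIO against control was 14 (8 higher, 6 lower), 22 with library totals (17 higher, 5 lower), 37 with no filter (16 higher, 21 lower), 194 with DESeq2 (78 higher, 116 lower), 4 with only 2 groups in the fit (1 higher, 3 lower), and from 0 (without DIO 1) to 140 (without control 2) with 1 library left out. It was 3 without control 1 or DIO 3, 2 without control 3, and 4 without DIO 2 or SG 3. For SG against DIO it was 0, and 6 with no filter, 86 with DESeq2, 179 with only 2 groups in the fit, and from 0 to 117 (without control 2) with 1 library left out. For SG against control it was 0, and 3 with no filter, 57 with DESeq2 and from 0 to 6 (without SG 1) with 1 library left out. Fits without 1 library leave 2 in its group, and the cause of these shifts was not tested.

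Library totals turned the log2 fold change of Irgq to 0.0033 and that of Jak1 to 0.039 for DIO over control. Jak2 for SG over DIO was 0.015 with DESeq2 size factors and with DESeq2, and 0.011 with no filter and with 2 groups. With 1 library left out, DIO over control ran from -0.0091 to 0.18 for Irgm1, -0.072 to 0.40 for Gbp7, -0.20 to 0.012 for Irgq, -0.097 to 1.51 for 9930111J21Rik1, -0.71 to 0.63 for Iigp1c, -0.14 to 0.052 for Jak1, -0.073 to 0.31 for Jak2 and -0.11 to 1.73 for Ciita. SG over DIO ran from -0.16 to 0.021 for Irgq and -0.17 to 0.089 for Jak2. The number of the 7 GTPases with all SG libraries below all control libraries was 0, and 1 (Irgm1) without control 2. SG over control ran from -0.013 to 0.18 for Igtp, -0.16 to 0.13 for Gbp2 and -0.20 to 0.24 for Gbp3.

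Groups share replicate numbers, but the labels do not say that a number marks a shared cage or day, and deviations from group means of same-numbered libraries correlated at -0.10 to 0.38, with 5 of 9 libraries closest to their own number. With the replicate number as a block, 18 genes were called in DIO against control (10 higher, 8 lower) and 0 in each other comparison, the medians of the 7 GTPases were 0.67, -0.53 and -0.00096, and Jak2 for SG over DIO was 0.0025. Depth limits Ifng, which had at most 4 counts in every library but DIO 1.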
